A study of Mus musculus with 12 samples.

Results

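The enzymes that add or remove acetyl and methyl groups on histones were examined in mouse macrophages. They were taken as every row of the deposited count table whose gene symbol begins with Kat, Kmt, Kdm, Setd or Hdac followed by a digit, or is Ehmt1, Ehmt2, Ezh1, Ezh2, Nsd1, Nsd2 or Nsd3, and 59 of the 12339 listed genes met this rule. By name they were 8 acetyltransferases, 11 deacetylases, 23 methyltransferases and 17 demethylases. The symbol decided membership, so relatives with other names (Ep300, Crebbp, the sirtuins, the Prmt genes) were set apart and are given as counts near the end.

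Mice were wild type (WT) or of a line labelled meKO. According to its title the study concerned protein kinase C epsilon (gene Prkce) in myeloid cells, and meKO is taken to be a myeloid knockout of it. The labels do not name a recombinase. All mice, the chow controls included, were given the same injection at 8 weeks of age. They stayed on chow or were given a high-fat "Western" diet (HFD), and 4 weeks later macrophages elicited with thioglycolate were washed out of the peritoneum. Each combination of genotype and diet had 3 RNA libraries (12 in all), while the labels describe 8 animals per genotype, 4 of them on HFD. The labels do not say that each library came from a separate animal, so p-values measure the spread between these libraries.

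Acetyltransferases place acetyl groups on lysines of histone tails, which loosens chromatin, and deacetylases take them off. Methyltransferases write marks whose meaning depends on the lysine: methylation of lysine 4 or 36 of histone H3 lies on active genes, and that of lysine 9 or 27 on silent ones, while demethylases erase these marks. In macrophages Hdac3 and the lysine 27 demethylase Kdm6b are known for their part in inflammatory and alternative activation, and Kdm6b is induced by inflammatory stimuli.

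Library totals ran from 25845000 to 37282800 counts, of which the 59 genes held between 0.117% and 0.206%. The lowest count of any member in any library was 3, for Hdac11, and 52 members had at least 100 counts in every library. All 8 macrophage markers on the list were present, among them Cd68 at 2538 to 3658 counts scaled to library size (CPM) and Adgre1 at 513 to 697 CPM. Csf1r ran from 473 to 844 CPM and Itgam from 522 to 1166 CPM. Cd14 (136 to 225 CPM), Fcgr1 (101 to 220 CPM) and Mertk (56.7 to 122 CPM) were lower. Lyz2 separated by genotype, at 30482 to 53835 CPM in WT and lower in every meKO library. It was at 69.3 CPM in meKO chow replicate 2 and at 16293 to 21309.5 CPM in the other meKO libraries. Prkce ran from 0.950 to 4.44 CPM, and its highest meKO value (1.78 CPM) was under its lowest WT value (2.01 CPM). Summed markers of other cells lay below Cd68, Adgre1, Csf1r and Itgam. The B cell, neutrophil, mast cell, and mesothelium and fibroblast sums overlapped Cd14, Fcgr1 and Mertk. The first 3 of these sums were 116 to 255 CPM for 7 of 8 B cell genes (Pax5 not listed), 94.0 to 144 CPM for 5 of 9 neutrophil genes (Ly6g, Mpo, Elane and Camp not listed), and 57.3 to 354 CPM for 7 of 7 mast cell genes. The 9 mesothelium and fibroblast genes, all listed, summed to 51.0 to 91.8 CPM in WT chow and 93.5 to 139 CPM in WT HFD, and to 50.5 to 96.5 CPM in meKO chow and 112 to 140 CPM in meKO HFD, so they moved with diet. Other lists separated by diet within WT: from chow to HFD the B cell sum went from 200.2 to 254 CPM down to 116 to 141 CPM, the neutrophil sum from 124 to 137 CPM down to 94.0 to 98.9 CPM, the sum of 6 of 6 dendritic cell genes from 30.9 to 50.5 CPM down to 17.9 to 27.3 CPM, and that of 3 of 5 eosinophil genes (Epx and Prg2 not listed) from 19.9 to 28.0 CPM down to 14.1 to 19.0 CPM. Within meKO these 4 overlapped between the diets, while 8 of 9 T and NK cell genes (Cd8a not listed) summed to 21.8 to 30.3 CPM on chow and 31.0 to 32.5 CPM on HFD. The part of these lists in the diet results below was not tested, and in bulk RNA fewer cells of a type and less RNA per cell cannot be told apart.

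Members were long genes. The longest annotated transcript of a member had a median of 4987 bases, against 3006 over all genes with a length, and 35 of 59 members (59.3%) fell in the upper quartile of length, at 4504 bases or more. They ran from 1579 bases (Kat8) to 19823 bases (Kmt2d). Of the classes, the demethylases had 14 of 17 members there, the methyltransferases 15 of 23, the deacetylases 3 of 11 and the acetyltransferases 3 of 8. Of the libraries, 2 stood apart along transcript length. When each gene's log2 CPM was set against its 12-library mean, the difference rose with transcript length in both (Spearman's rho over all genes 0.63 for WT chow replicate 1 and 0.67 for replicate 2), whereas rho was -0.05 for replicate 3. Among the members alone it was 0.64, 0.73 and -0.13. The median member lay 0.47 and 0.51 above its 12-library mean (log2 CPM) in WT chow replicates 1 and 2 and 0.03 above it in replicate 3, and the medians of the other 9 libraries lay between -0.29 and -0.01. The other genes of the upper length quartile lay at 0.37, 0.47 and -0.03 in the same 3 libraries. After a correction of each library for transcript length and GC content the members lay at 0.15, 0.09 and 0.06. Each comparison with the WT chow group is therefore given with and without this correction, and with WT chow replicates 1 and 2 left out. By design the correction removes any trend along length that the genes of a library share. A genotype or diet difference that ran along length would be removed as well.

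**Figure D1:**
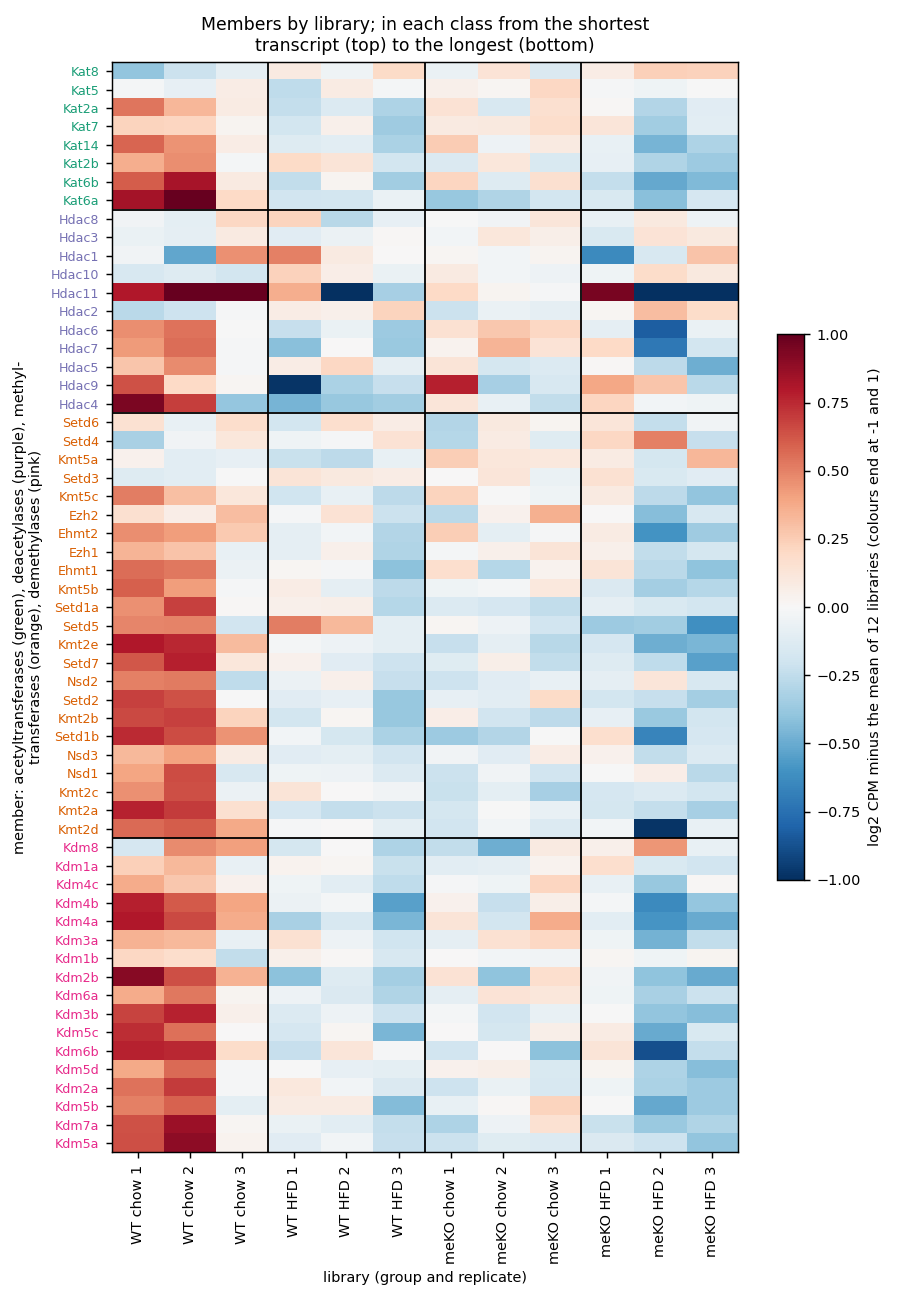
Log2 CPM of each of the 59 members minus its mean over 12 libraries (colour), with members in rows, grouped by class and ordered from the shortest to the longest transcript, and libraries in columns by group. WT chow replicates 1 and 2 are high over most rows, and 43 members had both of these libraries as their highest.

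Levels were compared between genes per kilobase of transcript. The levels spanned from 0.207 CPM per kb (Hdac11, the class IV deacetylase) to 37.8 CPM per kb (Setd3, known as an actin histidine methyltransferase in spite of its family name). The class medians lay closer together, at 6.38 CPM per kb for acetyltransferases, 4.16 for deacetylases, 3.72 for methyltransferases and 3.46 for demethylases. The highest acetyltransferase was Kat5 (Tip60, the NuA4 enzyme) at 20.1 CPM per kb. Its level is uncertain to the extent of 426 exon bases shared with Rnaseh2c on the opposite strand. The highest deacetylase was Hdac3, the catalytic subunit of the NCoR and SMRT corepressors, at 19.5 CPM per kb, with Hdac2 at 17.6. Kmt5a, which monomethylates lysine 20 of histone H4, followed Setd3 at 28.8 CPM per kb. The highest demethylase was Kdm1a (LSD1) at 11.9 CPM per kb.

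Subfamilies differed more than classes did. The 4 class I deacetylases had a median of 11.96 CPM per kb and the 4 class IIa deacetylases 0.950, with Hdac4 at 0.307 and Hdac9 at 0.449. The 8 lysine 4 type methyltransferases had a median of 1.31 CPM per kb, with Kmt2d lowest at 0.460, and the 5 lysine 36 type enzymes one of 4.57. These types are lists of genes. Activity was not measured, so a type does not show that each member, Kmt2e and Setd5 included, methylates that lysine. Among the 15 Jumonji demethylases the median was 3.34 CPM per kb and Kdm6b was lowest at 0.354. All 8 lysine 4 type and all 5 lysine 36 type members lie in the upper length quartile, so their levels carry the length differences between libraries given above.

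**Figure D2:**
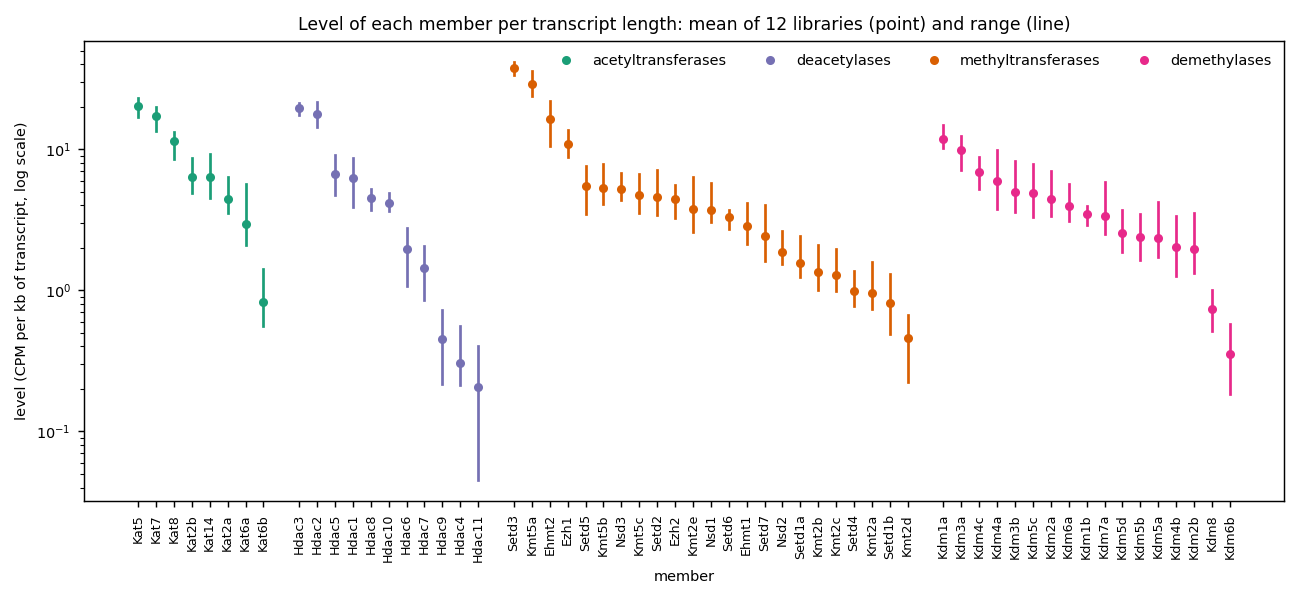
Level of each member in CPM per kilobase of its longest transcript (log axis), by class, with the point at the mean and the line from the lowest to the highest of 12 libraries. Levels run from Hdac11 at 0.207 to Setd3 at 37.8 CPM per kb.

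Some pairs of related genes, chosen after their values were seen, had 1 gene above the other in all 12 libraries. Other relatives changed order. In CPM, Kdm4a stood above Kdm4c in WT chow replicate 1 (45.9 against 36.9) and below it in WT HFD replicate 3 (19.2 against 23.9). Per kilobase, Kat6a stood 2.33 to 4.26 times above Kat6b (median 3.74), its paralogue in the MOZ and MORF complexes. Ezh1 stood 1.91 to 2.95 times above Ezh2 (median 2.47), the other catalytic subunit of the Polycomb complex that methylates lysine 27. The lysine 27 demethylase Kdm6a stood 8.80 to 17.0 times above Kdm6b (median 11.1). For the lysine 9 methyltransferases, Ehmt2 (G9a) stood 4.53 to 7.13 times above Ehmt1 (GLP), the partner with which it forms a dimer. Hdac2 stood 2.06 to 4.51 times above Hdac1, which can take its place in the same corepressor complexes. The X-linked Kdm5c stood 1.47 to 2.42 times above its Y-linked homologue Kdm5d, with which it could share reads. A steady order in the chosen pairs is therefore not shown for related enzymes in general. Ratios between genes of unequal length carry the length differences between libraries given above.

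The first comparison was of genotype on chow, meKO against WT. Of the 59 members 2 passed an adjusted p of 0.05 (edgeR's quasi-likelihood test, Benjamini-Hochberg adjustment over all 12339 genes, used throughout), both lower in meKO: Kat6a, an acetyltransferase of the MOZ complex that acts mainly on histone H3, and Kmt2e, a SET domain protein of the MLL family. Over all genes 0.081% were called, and 0.0486% were called lower. The other members leaned the same way without passing: 52 of 59 log2 fold changes were below 0 (88.1%, against 50.2% of all genes), with a median of -0.34 against -0.00 over all genes. The unadjusted p was under 0.05 for 26 members, all 26 with values below 0, against 19.8% of all genes.

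Kat6a (Entrez gene 244349, chromosome 8, 22859535 to 22943259, plus strand, GRCm38) had 45.5, 51.6 and 29.3 CPM on chow in WT (replicates 1, 2 and 3), against 19.6, 20.7 and 22.5 CPM in meKO. All 3 WT libraries lay above all 3 meKO libraries, and WT chow replicate 3 was much nearer to meKO than the other two. The means were 42.1 ± 11.5 and 20.9 ± 1.45 CPM (SD, n = 3). On the log2 scale the difference was -1.01 ± 0.17 (SE; edgeR adjusted p = 0.0484). Kmt2e (Entrez gene 69188, chromosome 5, 23434441 to 23504235, plus strand) stood at 46.3, 44.8 and 33.0 CPM in WT chow and at 22.6, 24.996 and 21.9 CPM in meKO chow. Its groups did not overlap either, and replicate 3 was again the lowest WT library. The log2 fold change was -0.84 ± 0.14 (SE; edgeR adjusted p = 0.0484). Kmt2e shares 972 exon bases with Srpk2 on the opposite strand, so without a stated strand setting reads of the pair cannot be told apart.

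By class, the 17 demethylases all had a log2 fold change below 0 (median -0.50, range -0.78 to -0.08), 10 of them with an unadjusted p under 0.05 and 0 called. The 8 lysine 4 type methyltransferases all lay below 0 as well (median -0.64), each with an unadjusted p under 0.05, and Kmt2e alone was called. Of the 5 lysine 36 type enzymes, 5 lay below 0 (median -0.43) and 0 were called. The deacetylases had a median of -0.13, with 0 called and 0 at an unadjusted p under 0.05, and the 4 class I members lay between -0.02 and 0.07. Members that stood higher in meKO were few: Kmt5a and Hdac10 were the only 2 whose meKO libraries all lay above the WT libraries, and neither was called. Groups did not overlap for 21 of 59 members (35.6%), against 17.1% of all genes, 19 of them lower in meKO (8.28% of all genes) and 2 higher (8.87%).

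These differences ran along transcript length. Over the members, rho between the log2 fold change and length was -0.70, and 0.10 after the correction, which removes such a trend by design. The 35 members of the upper length quartile all lay below 0 with a median of -0.50, and of the other genes of that quartile 86.2% lay below 0, with a median of -0.32. The 24 shorter members had a median of -0.13. With the correction 0 members were called (0.0324% of all genes), 37 of 59 lay below 0 (49.4% of all genes) and the median was -0.07. Kat6a then had a log2 fold change of -0.53 (edgeR adjusted p = 0.142) and Kmt2e one of -0.50 (0.126), the same direction at a smaller size.

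Both calls also rested on the libraries and the tool. Without WT chow replicate 3 edgeR called 30 members (50.8%, against 20.6% of all genes in that fit), without meKO HFD replicate 1 it called 2 (0.13% of all genes), and without any 1 of the other 10 libraries it called 0. DESeq2 called 15 members (25.4%, against 4.79% of all genes), limma-voom 0 (0.0162%), and voom with library quality weights 37 (62.7%, against 32.8%). The edgeR adjusted p of Kat6a rose to 0.0675 with library totals in place of scaling factors and to 0.244 when the 6 chow libraries were fitted alone. With WT chow replicates 1 and 2 left out, Kat6a was at -0.48 and Kmt2e at -0.51, neither called.

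**Figure D3:**
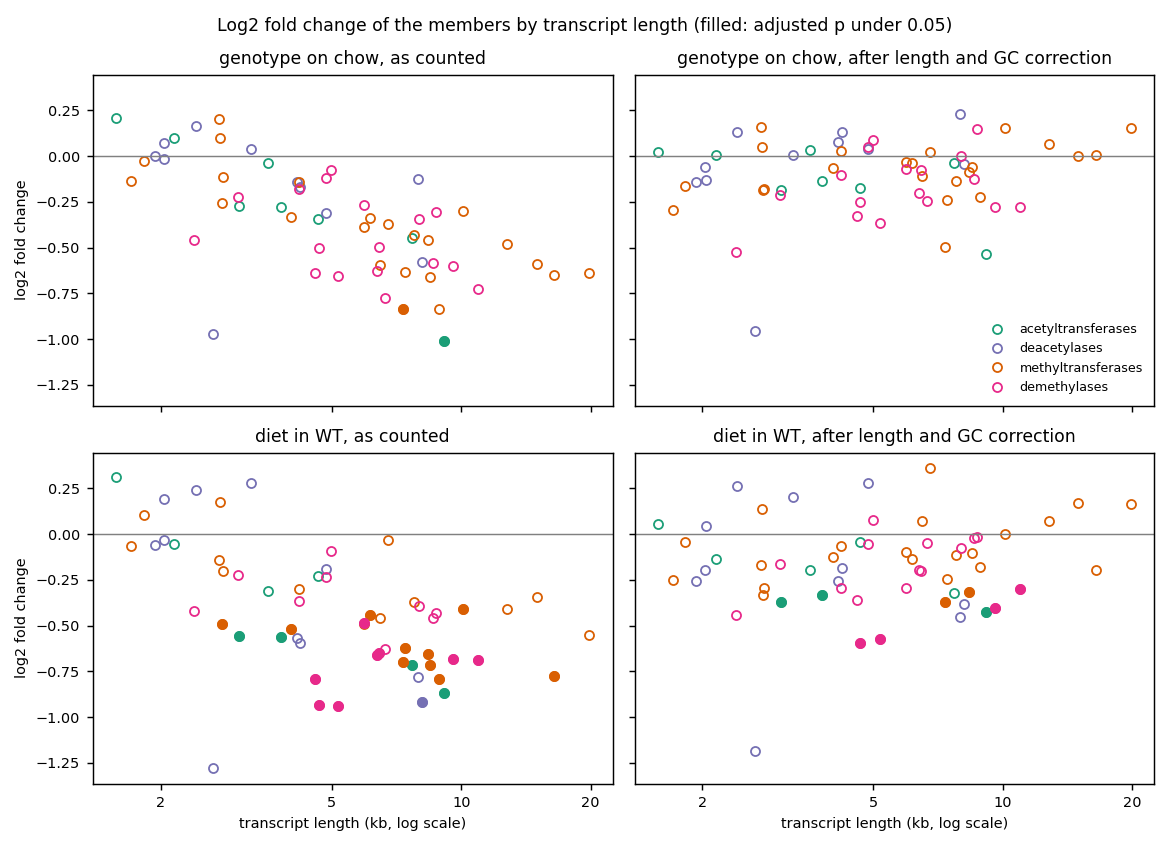
Log2 fold change of each member (vertical) against the length of its longest transcript in kilobases (horizontal, log axis), for genotype on chow and diet in WT, as counted and after the correction for length and GC content, with called members filled. For genotype on chow rho is -0.70 as counted and 0.10 after the correction, and for diet in WT it is -0.55 and 0.04. The correction removes by design a trend along length that all genes share.

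Genotype on HFD was compared next, meKO against WT. No member was called by edgeR (0 of 59, against 0.081% of all genes), 3 had an unadjusted p under 0.05 (4.56% of all genes), DESeq2 and limma-voom called 0 and voom with quality weights called 2 (1.04% of all genes), Setd5 and Kmt5a. The median log2 fold change was -0.04, against 0.02 over all genes, and 38 of 59 members lay below 0 (64.4%, against 46.1%). Groups did not overlap for 4 members (6.78%, against 10.3% of all genes), namely Setd5, Kmt2e and Kmt2c, lower in meKO (4.85% of all genes), and Hdac4, higher (5.45%).

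Setd5, a SET domain protein tied to a corepressor complex, stood at 51.5, 45.2 and 33.8 CPM in WT HFD and at 28.0, 28.4 and 23.6 CPM in meKO HFD. The WT libraries all lay above the meKO libraries but were spread widely. Its log2 fold change was -0.70 ± 0.19 (SE; edgeR adjusted p = 0.426, and 0.00945 with quality weights). Kmt5a was at 0.28 ± 0.12 (edgeR adjusted p = 0.999, and 0.0473 with quality weights) and Kmt2e at -0.31 ± 0.14 (0.999). Kat6a, at 22.3, 22.4 and 24.4 CPM in WT HFD and 23.0, 19.1 and 22.7 CPM in meKO HFD, overlapped between the genotypes (log2 fold change -0.09, edgeR adjusted p = 0.999).

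Averaged over the diets, 1 of 59 members was called for genotype, Kmt2e at -0.57 ± 0.10 (SE; edgeR adjusted p = 0.0353), where 0.17% of all genes were called. In 25 members the unadjusted p was under 0.05, against 17.7% of all genes, and 49 lay below 0 (83.1%, against 48.2% of all genes). In the upper length quartile 34 of 35 members lay below 0, against 82% of the other genes there. Kmt2e kept its call after the length and GC correction, at a log2 fold change of -0.36 (edgeR adjusted p = 0.0293). Kat6a was at -0.55 and missed the threshold (edgeR adjusted p = 0.0854). The call of Kmt2e was lost without any 1 library other than WT chow replicate 3 or meKO HFD replicate 1, and over 20 alternatives its adjusted p ran from 3.43e-05 to 0.285. Without WT chow replicate 3, 20 members were called (33.9%, against 11.3% of all genes in that fit), and without both other WT chow libraries 0 were.

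The HFD was compared with chow within WT mice. Of 59 members 23 were called (39.0%, against 21.3% of all genes), all 23 lower on HFD, where 11.8% of all genes were called lower. Among those called the largest falls were in the Jumonji demethylases Kdm2b and Kdm4a, the class IIa deacetylase Hdac4 and the acetyltransferase Kat6a. The median log2 fold change was -0.46, against -0.03 over all genes, and 53 of 59 lay below 0 (53% of all genes did). Groups did not overlap for 30 members (50.8%, against 39.3% of all genes), 26 lower on HFD (19.9% of all genes) and 4 higher (19.4% of all genes). The 4 higher members were Hdac2, Hdac10, Kat8 and Setd3, none of them called.

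Among the demethylases 8 of 17 were called lower, all of the Jumonji type, and 17 of 17 lay below 0. Kdm2b, an H3 lysine 36 demethylase that also recruits Polycomb to CpG islands, stood at 18.3, 15.2 and 12.4 CPM in WT chow and at 7.35, 8.95 and 7.73 CPM in WT HFD. Every chow library lay above every HFD library, and the log2 fold change was -0.94 ± 0.19 (SE; edgeR adjusted p = 0.0125). Kdm4a, which demethylates lysines 9 and 36 of histone H3, stood at 45.9, 41.5 and 34.2 CPM on chow and at 21.0, 23.6 and 19.2 CPM on HFD. Here too the groups stood clear of each other, with chow replicate 3 the lowest chow library, and the log2 fold change was -0.93 ± 0.17 (edgeR adjusted p = 0.00884). Kdm4b fell by 0.79 on the log2 scale, the lysine 4 demethylase Kdm5a by 0.69 and Kdm7a by 0.68, and Kdm3b, Kdm5c and Kdm6a by 0.49 to 0.66. The 2 amine oxidases, Kdm1a and Kdm1b, lay between -0.23 and -0.09 and were not called. Kdm2b shares 627 exon bases with Rnf34 on the opposite strand, and its count is uncertain to that extent.

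Of the acetyltransferases 4 of 8 were called lower, and 7 lay below 0. Kat6a went from the chow values above to 22.3, 22.4 and 24.4 CPM on HFD, below every WT chow library, a log2 difference of -0.87 ± 0.17 (SE; edgeR adjusted p = 0.0111). Its paralogue Kat6b stood at 9.34, 10.9 and 6.54 CPM on chow and at 5.18, 6.27 and 4.84 CPM on HFD, with chow replicate 3 just above the highest HFD library (log2 fold change -0.72, edgeR adjusted p = 0.0244). Kat14 of the ATAC complex and Kat2a (GCN5), which ATAC and SAGA share, both fell by 0.56 on the log2 scale. Kat14 shares 693 exon bases with the protein-coding gene Pet117 on the same strand, so its count is uncertain to that extent in every comparison. Kat8 (MOF), which acetylates lysine 16 of histone H4, was at 0.31 and not called (edgeR adjusted p = 0.0846).

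Of the methyltransferases 10 of 23 were called lower and none was called higher, and 21 lay below 0. The lysine 4 type made up 5 of the 10: Setd1b fell by 0.79 on the log2 scale, Kmt2a (MLL1) by 0.77, Kmt2b by 0.71, Kmt2e by 0.70 and Setd7 by 0.62. Kmt2a stood at 26.1, 24.9 and 17.1 CPM on chow and at 13.6, 13.0 and 13.2 CPM on HFD, so the HFD libraries were tight and the chow libraries spread. Of the lysine 36 type, Setd2, which trimethylates that lysine, and Nsd3 were called lower. Ehmt2, Kmt5b and Kmt5c were called lower as well, and the lysine 27 enzymes Ezh1 and Ezh2 were not called (-0.30 and -0.20).

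Of the deacetylases 1 of 11 was called lower, and 8 lay below 0. Hdac4 stood at 4.56, 3.82 and 1.82 CPM on chow and at 1.72, 1.82 and 1.86 CPM on HFD, so chow replicate 3 lay among the HFD libraries (log2 fold change -0.92, edgeR adjusted p = 0.0363). Hdac11, at 0.792, 1.08 and 0.959 CPM on chow and 0.583, 0.207 and 0.361 CPM on HFD, had the lowest log2 fold change of all members on few counts and was not called (-1.28 ± 0.54, edgeR adjusted p = 0.0952). The class I members lay between -0.06 and 0.28, the top being Hdac2 (0.28, edgeR adjusted p = 0.0834). Hdac3, at 37.2 to 42.1 CPM on chow and 36.6 to 39.8 CPM on HFD, overlapped between the diets.

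**Figure D4:**
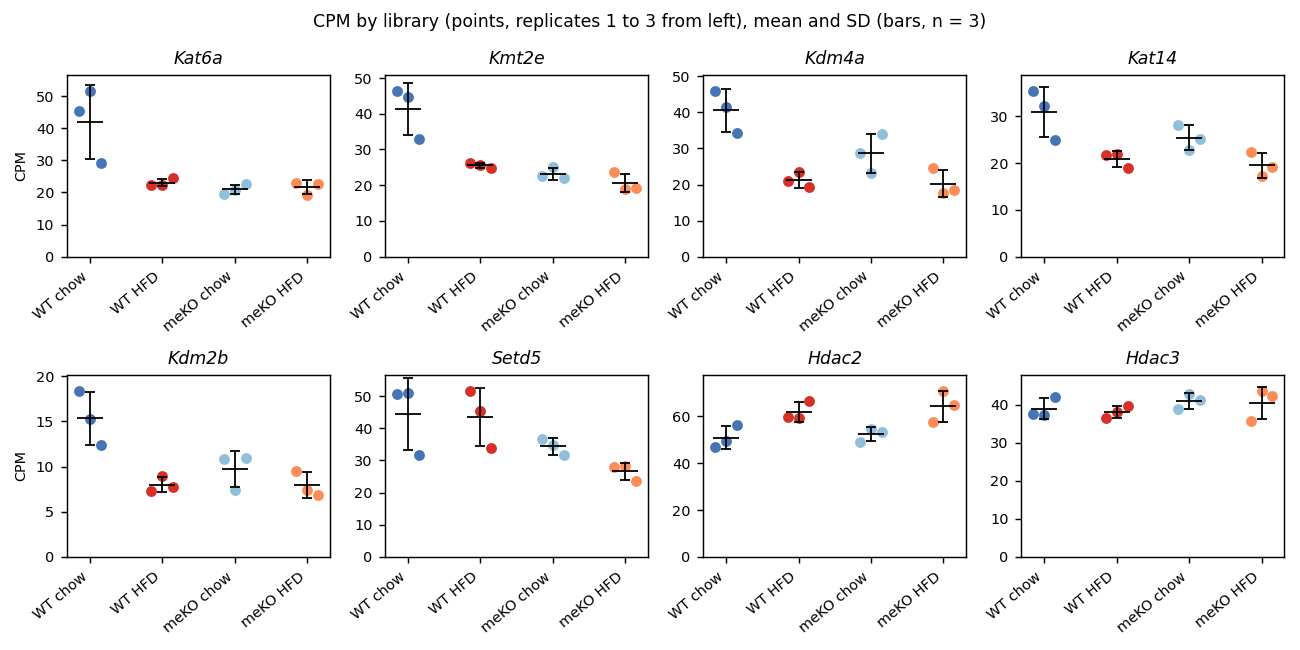
CPM in every library (points) with the mean and SD of each group (bars on the points, n = 3) for 8 members, with each axis starting at 0. Kat6a, Kmt2e, Kdm4a, Kat14, Kdm2b and Setd5 show WT chow replicates 1 and 2 above replicate 3, while Hdac2 lies higher on HFD and Hdac3 overlaps between all 4 groups.

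The WT diet differences ran along length too (rho -0.55 over the members, and 0.04 after the correction, which removes such a trend by design). Of the 35 members of the upper length quartile 19 were called (54.3%, against 28.6% of the other genes there), and of the 24 shorter members 4 were (16.7%, against 19.1% of the other shorter genes). With the correction 9 members were called, all lower and all among the 23, where 11% of all genes were called, and the median was -0.18. These 9 were Kat14, Kat2a, Kat6a, Kdm2b, Kdm4a, Kdm5a, Kdm7a, Kmt2e and Setd2, with corrected log2 fold changes of -0.59 (Kdm4a) to -0.30 (Kdm5a). Leaving out 1 library gave 0 calls without WT chow replicate 1 and 0 without WT HFD replicate 3, where 1.05% and 0.778% of all genes were called. It gave 5 without WT chow replicate 2 (8.47%, against 2.59% of all genes), 4 without WT HFD replicate 1 (6.78%, against 3.73%) and 39 without WT chow replicate 3 (66.1%, against 39.9%). With WT chow replicates 1 and 2 both left out, 0 members and 0.122% of all genes were called.

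The same comparison was made within meKO mice. No member was called by edgeR, DESeq2, limma-voom or voom with quality weights, where edgeR called 0.105% of all genes, and 6 members had an unadjusted p under 0.05 (15.9% of all genes). The median log2 fold change was -0.16, against -0.01 over all genes, and 44 of 59 lay below 0 (74.6%, against 50.8%). Over the members rho with length was -0.08. Groups did not overlap for 9 members (15.3%, against 19.7% of all genes): Kat5, Kat14, Kat6b, Hdac6, Setd5, Kmt5b, Setd2 and Kmt2a were lower on HFD (9.38% of all genes) and Hdac2 was higher (10.3%).

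Kdm4a had the smallest p. It stood at 28.7, 23.3 and 34.0 CPM in meKO chow and at 24.5, 17.5 and 18.6 CPM in meKO HFD, with 1 HFD library above the lowest chow library (log2 fold change -0.50 ± 0.17, edgeR adjusted p = 0.228). Hdac2 stood at 48.9, 54.5 and 53.5 CPM on chow and at 57.6, 70.6 and 64.8 CPM on HFD, so the groups did not overlap (0.30 ± 0.11, edgeR adjusted p = 0.261). Kat14 was at -0.38 ± 0.15 (edgeR adjusted p = 0.272), with all HFD libraries (17.1 to 22.4 CPM) below the chow libraries (22.8 to 28.2 CPM). Kat6a, at 19.6 to 22.5 CPM on chow and 19.1 to 23.0 CPM on HFD, overlapped (log2 fold change 0.05, edgeR adjusted p = 0.915).

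Set side by side, the 23 members called in WT had a median diet effect (log2) of -0.68 in WT, against -0.20 in meKO, and 20 of them lay below 0 in meKO; the WT median comes from the values that chose them. Of all 59 members 42 lay below 0 in both genotypes, a count not made over all genes. Over all genes 53% lay below 0 in WT and 50.8% in meKO. The difference between the diet effects was tested as an interaction. No member was called by edgeR, DESeq2 or limma-voom, 6 were by voom with quality weights (2.39% of all genes) and 2 by edgeR without WT chow replicate 3 (0.454%), and edgeR on all libraries called 0.0162% of all genes. In 9 members the unadjusted p was under 0.05 (6.13% of all genes), led by Kat6a (0.92 ± 0.24, edgeR adjusted p = 0.679), Setd1b (0.83 ± 0.27, 0.773) and Kmt2a (0.61 ± 0.21, 0.773), positive values being a diet effect that was less negative in meKO. The median over the members was 0.24, against 0.02 over all genes, and 0.09 after the length and GC correction, where 0 members were called. With WT chow replicates 1 and 2 left out 0 were called as well, the median was 0.03, and Kat6a was at 0.39, Setd1b at 0.65 and Kmt2a at 0.20.

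**Figure D5:**
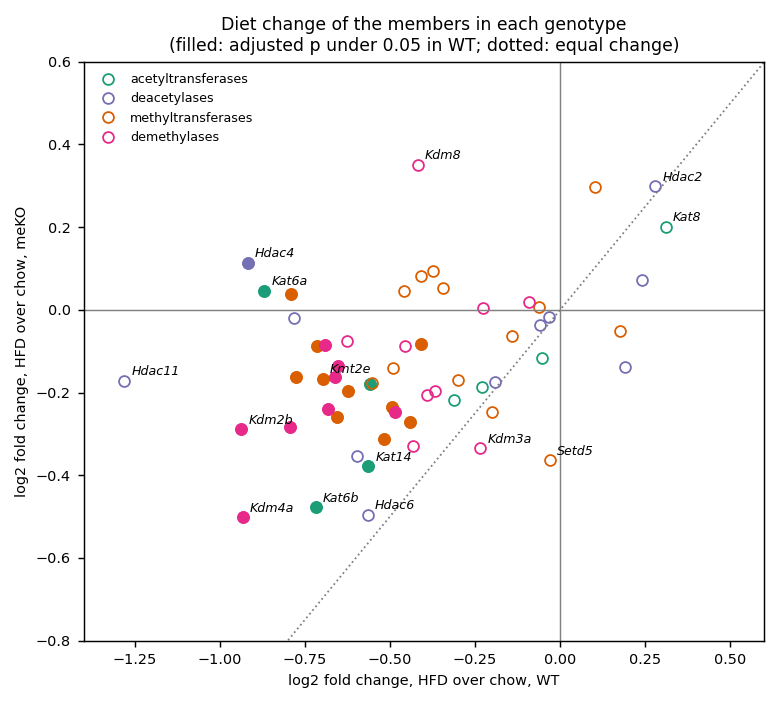
Log2 fold change of HFD against chow for each member in WT (horizontal) and meKO (vertical), coloured by class. Of 59 members 51 had the more negative value in WT. So did 6526 of all 12339 genes and 2445 of the 2980 other genes of the upper length quartile. Of the members 42 were below 0 in both genotypes, a count not made over all genes.

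Averaged over the genotypes, which gives 6 libraries against 6, 27 of 59 members were called for diet (45.8%, against 30.2% of all genes), 25 lower on HFD and 2 higher (15.3% and 14.9% of all genes). By class these were 6 of 8 acetyltransferases, 3 of 11 deacetylases, 9 of 23 methyltransferases and 9 of 17 demethylases. Kdm4a fell most among those called, by 0.72 on the log2 scale (edgeR adjusted p = 0.00415), and after it Kdm2b by 0.61 (0.00933) and Kat6b by 0.60 (0.00983). Kdm4b fell by 0.54, the tubulin deacetylase Hdac6 by 0.53, the class IIa deacetylase Hdac7 by 0.47, Kat14 by 0.47 and Kmt2a by 0.47. Kdm7a and Setd2 each fell by 0.46, Kmt2e by 0.43, Ehmt2 by 0.42 and Kat6a by 0.41 (edgeR adjusted p = 0.0229).

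The 2 members called higher were Hdac2 and Kat8. Hdac2 stood at 47.1, 49.4 and 56.3 CPM in WT chow and at 59.8, 59.1 and 66.6 CPM in WT HFD, so with the meKO values above every HFD library of either genotype lay above every chow library. Its log2 fold change was 0.29 ± 0.08 (SE; edgeR adjusted p = 0.0183), and 0.22 (0.00914) after the length and GC correction. Kat8 stood at 13.6, 15.4 and 16.8 CPM in WT chow, at 17.3 to 20.4 CPM in WT HFD, at 16.1 to 19.6 CPM in meKO chow and at 18.8 to 21.0 CPM in meKO HFD, with overlap between the diets in meKO. Its log2 fold change was 0.26 ± 0.09 (edgeR adjusted p = 0.0429), and 0.07 (0.475) after the correction. Kat8 shares 122 exon bases with Prss8 on the opposite strand.

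With the correction 13 members were called for diet averaged over genotypes (12 lower and 1 higher, where 21.9% of all genes were called), each also called without it: Hdac2 higher, and Kat14, Kat2a, Kat6b, Kdm2b, Kdm4a, Kdm4c, Kdm5a, Kdm6a, Kdm7a, Kmt2e, Kmt5c and Setd2 lower. Kdm4a, Kdm2b, Kat6b, Kat14, Kmt2e, Setd2 and Kdm6a passed in 19 of 20 alternatives each, the exception being the removal of WT chow replicates 1 and 2. The number of members called went to 12 without WT chow replicate 1 (20.3%, against 16% of all genes in that fit) and 13 without WT HFD replicate 3 (22%, against 15.9%). It went to 15 (25.4%, against 16.5% to 18.1%) when WT chow replicate 2, meKO chow replicate 3 or meKO HFD replicate 2 was left out, and to 42 without WT chow replicate 3 (71.2%, against 43.2%). With WT chow replicates 1 and 2 both left out it was 0 (1.64% of all genes).

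The promoters of 3 members are shown for the members that carry the diet results: Kdm4a, the called member with the largest fall averaged over genotypes, Setd2, which fell with and without the correction, and Hdac2, which rose. Each is the 250 bases before the start site, 5′ to 3′ on the gene's strand, from RefSeq on GRCm38.p6, at chr4:118180044-118180293 (minus strand), chr9:110532347-110532596 (plus) and chr10:36974294-36974543 (plus). Capitals mark matches on either strand to the GC box GGGCGG, the binding letters of Sp1, or to the CCAAT box bound by NF-Y.
Kdm4a: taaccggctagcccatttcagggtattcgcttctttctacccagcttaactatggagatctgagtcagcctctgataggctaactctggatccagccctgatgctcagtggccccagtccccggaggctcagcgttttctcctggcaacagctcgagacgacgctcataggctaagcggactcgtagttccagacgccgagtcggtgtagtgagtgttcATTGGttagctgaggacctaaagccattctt
Setd2: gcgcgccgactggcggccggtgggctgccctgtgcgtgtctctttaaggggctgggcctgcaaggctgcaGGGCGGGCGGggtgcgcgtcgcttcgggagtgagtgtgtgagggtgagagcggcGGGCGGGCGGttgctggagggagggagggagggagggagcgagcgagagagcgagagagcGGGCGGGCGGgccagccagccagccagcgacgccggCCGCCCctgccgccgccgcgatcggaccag
Hdac2: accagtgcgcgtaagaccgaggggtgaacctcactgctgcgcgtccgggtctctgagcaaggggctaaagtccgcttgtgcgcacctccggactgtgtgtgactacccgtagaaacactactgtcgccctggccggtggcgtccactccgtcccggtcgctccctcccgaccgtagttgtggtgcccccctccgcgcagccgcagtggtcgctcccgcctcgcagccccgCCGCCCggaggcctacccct
The Kdm4a window held 12 CG dinucleotides and 53.6% G and C, and the others 31 and 76% (Setd2) and 27 and 68.8% (Hdac2). Kdm4a had 1 CCAAT box, read here on the other strand as ATTGG, and no GC box, Hdac2 had 1 GC box and Setd2 had 7, some of them overlapping.

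RefSeq windows were at hand for 44 of the 59 members, 63 windows in all, since some genes have several start sites. Kat6a and Kmt2e were among the members without a window. The 63 member windows held a median of 18 CG dinucleotides, against 6 over all 32851 windows of the genome, and 61.2% G and C, against 52.4%. On either strand, GGGCGG lay in 58.7% of the member windows and 32.7% of all windows, CCAAT in 39.7% and 33.8%, and the TATA box TATAAA in 4.76% and 12.4%. The ETS core CCGGAAG lay in 6.35% and 6.91%, the E-box CACGTG in 7.94% and 6.02%, and the NRF1 motif and the cAMP response element TGACGTCA in 0 member windows, against 0.782% and 1.55% of all windows. A match says only that the letters are there. The windows of the genome belong to 27025 genes, more than the 12339 of the count table, and no background of counted genes was taken. A trait of counted genes in general therefore cannot be told from a trait of the members.

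Genes of the same machinery outside the rule were counted from 3 lists: 42 other histone-modifying enzymes, 59 partner subunits of the complexes and 9 bromodomain readers, all of them listed in the table. For diet in WT, 11 of the 42 enzymes were called (26.2%, 3 higher and 8 lower), 22 of the 59 subunits (37.3%, 3 and 19) and 5 of the 9 readers (55.6%, 0 and 5), against 21.3% of all genes. After the length and GC correction 4, 8 and 1 were called (9.52%, 13.6% and 11.1%), against 11% of all genes. For genotype on chow edgeR called 0 in each list, with 18, 24 and 5 genes at an unadjusted p under 0.05. On the same contrast DESeq2 called 8, 11 and 3 (4.79% of all genes), limma-voom 0 in each, and voom with quality weights 21, 33 and 7 (32.8% of all genes). The list medians on chow were -0.08, -0.18 and -0.54 on the log2 scale, against -0.34 for the 59 members. For diet in meKO edgeR and DESeq2 called 0 in each list, voom with quality weights 2, 0 and 0, and 6, 6 and 0 had an unadjusted p under 0.05. Averaged over genotypes, diet calls numbered 12, 22 and 5 (28.6%, 37.3% and 55.6%), against 30.2% of all genes.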

How the data were processed

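Per the labels' protocols, RNA came from a Trizol extraction and libraries were of the TruSeq type (Illumina). The authors deposited whole-number counts per gene for 12 libraries, with Entrez identifiers and symbols. Per the submitters' processing notes the build was mm10 and DESeq2 was used; the aligner, the counter and the strand setting are not given in the sources used here. Groups came from sample titles, and replicates were numbered in sample order. What was injected is withheld for evaluation and is not reported here. Members, classes and lists were chosen with earlier results of these data known.

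The counts entered edgeR 4.0.16 (R 4.3.3) with TMM factors. filterByExpr kept all 12339 genes, dispersions were robust, and the two-sided quasi-likelihood F test used a fit of 4 group means to all 12 libraries. The threshold was an adjusted p (Benjamini-Hochberg) of 0.05. CPM are TMM-scaled, and a standard error is the size of the log2 fold change divided by the square root of F. Log2 CPM used a prior count of 2. Lengths, GC content and positions were taken from the longest GENCODE M21 basic transcript (GRCm38), and 12049 genes had one. The correction for length and GC content used a loess curve (span 0.3) of each library's deviation, entered as offsets. Scripts were tested on simulated data.

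Named were Kat6a throughout, called members by size of change (up to 12 each way for diet in WT and averaged, up to 10 elsewhere), the 3 smallest p where none was called, and the top member per length in each class. Others named were chosen after their values were seen, also for pairs, promoters and groups that did not overlap. The alternatives tried were edgeR with library totals or median-of-ratios factors, with no filter or one of 10 counts in every library, and on the compared groups alone, DESeq2 1.42.0, voom with and without quality weights (limma 3.58.1), the length and GC correction and each library left out. Leaving out WT chow replicates 1 and 2 together was chosen after seeing the data. Exon bases shared with another annotated gene were found for 20 members, 9 of them with a protein-coding gene, and counts of these are uncertain. The 186 genes without a symbol were tested but could not be members.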

Additional observations from a re-analysis of the deposited data

How the results depend on the processing

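The number of members called did not move by more than 1.5 times with median-of-ratios factors or with at least 10 counts in every library. The fit with no low-count filter is the same fit again, since the filter removed no gene, and it was not counted among the alternatives. Library totals moved it for genotype on chow alone (from 2 to 0). For that contrast DESeq2 gave 15, limma-voom 0, quality weights 37, the compared groups alone 0, the length and GC correction 0, and leaving out WT chow replicates 1 and 2 together 0, and leaving out 1 library gave 0 to 30. For genotype on HFD, from 0 called, quality weights gave 2. For diet in WT, from 23 called, quality weights gave 47 (79.7%, against 52% of all genes), the length and GC correction 9, and leaving out both WT chow libraries 0, with 0 to 39 on leaving out 1 library. For the interaction, from 0, quality weights gave 6 and leaving out 1 library 0 to 2. For genotype averaged over diets, from 1, DESeq2 gave 7 (2.97% of all genes), quality weights 39 (31.1%) and leaving out both libraries 0, with 0 to 20 on leaving out 1. For diet averaged over genotypes, from 27, quality weights gave 46 (78%, against 51% of all genes), the length and GC correction 13 and leaving out both libraries 0, with 12 to 42 on leaving out 1. Leaving out both WT chow libraries leaves 1 in that group, assumed to vary like the others. The cause of these differences was not tested. Kat6a changed sign in 2 contrasts where it was not called: genotype on HFD was 0.00811 after the correction. Diet in meKO was -0.00673 without meKO chow replicate 1 and -0.00346 without meKO HFD replicate 1, and ran up to 0.13 on leaving out other libraries. No fit to the compared groups alone was made for the interaction and the averaged contrasts. Depth limits Hdac11, whose lowest library had 3 counts. No paired analysis was possible because the labels give no replicate numbers and the numbers used follow the order of the samples.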
